A study of Mus musculus with 3 samples.

Results

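Histone genes were read on 3 Illumina mouse-8 BeadChip arrays of mouse 2-cell embryos, of which 1 held 2-cell ctrl embryos and 2 held 2-cell NSN embryos (NSN-2cell-a and NSN-2cell-b). The members were all genes whose platform symbol belongs to the histone nomenclature (H1, H2A, H2B, H3 and H4 genes), each represented by its probe with the highest mean signal. The rule took 68 of the 16593 named genes of the array, or 76 of its 25697 probes, and 52 of the 68 were replication-dependent genes of the histone clusters and 16 were variants or testis forms. Of the 68, 44 lie on mouse chromosome 13 and 8 on chromosome 3. Both groups came from B6C3F1 mice (F1B6C3H in the labels), with oocyte donors 4 to 6 weeks old and sperm donors 5 months old, and embryos were collected 26 hr after insemination. The control embryos came from competent ovulated eggs. The NSN embryos came from antral oocytes whose chromatin does not surround the nucleolus, which were taken from ovaries and brought to metaphase II in culture before insemination, so the oocyte type and the culture cannot be told apart. No label says that the 2 NSN arrays held separate pools of embryos, and their spread may then be technical only. There was a single control array.

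Histones are the proteins around which nuclear DNA is wrapped. Replication-dependent histone genes lie in clusters and are transcribed mainly while DNA is copied, and most of their mRNAs end in a stem-loop in place of a poly(A) tail. Variant histones are made throughout the cell cycle from polyadenylated mRNAs, and H3.3, encoded by both H3f3a and H3f3b, is laid down outside replication. The egg stores histones and histone mRNAs, which package the parental genomes during the first cleavages. The study states that its microarray protocol amplified polyadenylated transcripts alone, so a signal from a replication-dependent gene on these arrays stands for transcripts that carried a tail, and a lower amount and a shorter tail cannot be told apart. The methods state a set input mass of mRNA and repeated rounds of amplification, so the signals are not amounts per embryo. Neither the RNA per embryo nor the number of embryos or cells in a sample can be read from them.

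The promoter windows below are those of the 3 histone genes measured in both groups with lower signals in 2-cell NSN embryos (H2ac24, H2ac20 and H2ac10), of the variant with the highest fold bound (H3f3b) and of the linker histone gene that was brighter on both NSN arrays (H1f5). Each runs from 250 bases before to 50 bases after the start of the gene, 5′ to 3′ on the coding strand (RefSeq, GRCm38.p6). Capitals mark matches on either strand to TATAAA (the TATA box), to CCAAT (the box bound by NF-Y) and to ATTTGCAT (the octamer bound by POU factors). The windows are chr13:21833426-21833725 (minus strand) for H2ac24, chr3:96220831-96221130 (minus strand) for H2ac20, chr13:23533625-23533924 (plus strand) for H2ac10, chr11:116024455-116024754 (minus strand) for H3f3b and chr13:21780576-21780875 (minus strand) for H1f5.
H2ac24 promoter: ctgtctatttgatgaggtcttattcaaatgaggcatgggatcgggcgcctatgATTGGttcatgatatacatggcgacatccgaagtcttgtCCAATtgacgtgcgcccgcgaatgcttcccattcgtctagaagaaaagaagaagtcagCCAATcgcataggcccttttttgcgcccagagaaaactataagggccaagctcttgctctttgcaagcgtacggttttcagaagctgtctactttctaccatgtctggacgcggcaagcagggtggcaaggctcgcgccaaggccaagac
H2ac20 promoter: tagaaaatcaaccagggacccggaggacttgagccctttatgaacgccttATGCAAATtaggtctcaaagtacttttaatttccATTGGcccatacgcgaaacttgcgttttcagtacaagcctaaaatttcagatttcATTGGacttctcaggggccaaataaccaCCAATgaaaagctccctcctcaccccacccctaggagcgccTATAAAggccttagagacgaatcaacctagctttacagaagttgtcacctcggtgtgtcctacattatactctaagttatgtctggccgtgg
H2ac10 promoter: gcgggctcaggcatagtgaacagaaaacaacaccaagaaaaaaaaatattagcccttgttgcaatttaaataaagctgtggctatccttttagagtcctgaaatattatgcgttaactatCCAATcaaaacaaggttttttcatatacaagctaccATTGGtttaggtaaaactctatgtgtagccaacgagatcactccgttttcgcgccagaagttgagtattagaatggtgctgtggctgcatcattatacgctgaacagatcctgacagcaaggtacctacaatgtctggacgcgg
H3f3b promoter: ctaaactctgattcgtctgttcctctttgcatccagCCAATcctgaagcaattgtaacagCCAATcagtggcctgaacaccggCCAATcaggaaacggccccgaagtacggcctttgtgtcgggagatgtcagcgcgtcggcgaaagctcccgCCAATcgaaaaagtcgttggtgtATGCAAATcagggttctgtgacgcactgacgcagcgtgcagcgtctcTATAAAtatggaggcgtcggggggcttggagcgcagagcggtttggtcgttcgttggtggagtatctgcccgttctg
H1f5 promoter: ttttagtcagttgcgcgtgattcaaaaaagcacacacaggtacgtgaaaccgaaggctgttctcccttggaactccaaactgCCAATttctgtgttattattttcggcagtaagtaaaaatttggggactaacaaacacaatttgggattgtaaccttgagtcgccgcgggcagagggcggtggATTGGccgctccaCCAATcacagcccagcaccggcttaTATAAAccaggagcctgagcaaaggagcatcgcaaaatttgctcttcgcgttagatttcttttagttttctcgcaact

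A RefSeq window was held for 62 of the 68 histone genes. CCAAT was found in 39 of the 47 replication-dependent windows (83.0%), TATAAA in 28 (59.6%) and ATTTGCAT in 11 (23.4%), where all 27025 mouse windows of this length held them in 37.9%, 14.2% and 1.75%. The replication-dependent H2A genes did not separate by these letters into those seen on the arrays and those not seen: CCAAT was in 7 of 7 windows of either kind and TATAAA in 5 of 7 of either kind. ATTTGCAT was in 2 of the 7 windows of H2A genes above background and in 4 of the 7 below it. All 11 windows of H2B genes held CCAAT, and none of those genes was above background. Within the last 50 bases of each printed H2A window stands atgtctgg, the opening codons of H2A. ATGTCTGG occurred on the coding strand in 7 of the 14 replication-dependent H2A windows and in 139 of all 27025 (0.514%). It is not particular to these genes. The windows of the H4 genes H4c3, H4c4, H4c6, H4c9 and H4c18 and of the variant H2ac1 also held it. These matches are descriptions of the windows and not sites of binding.

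Signals are background-subtracted intensities on a linear scale, and most probes lay near 0 on every array, with medians of 0.0916 on the control array, 0.0443 on NSN-2cell-a and 0.0195 on NSN-2cell-b. A gene was counted as above background when its signal reached the array's limit for a detection p of 0.01 in the control or on both NSN arrays, and the limits were 6.10, 8.57 and 8.28. The limit of NSN-2cell-b was an assumption. The NSN arrays had fewer bright probes, with 193 and 203 probes above these limits against 1086 on the control array and a highest signal of 348 on each against 2113. Oocyte and 2-cell markers were present in the control and dimmer in the NSN samples: 9 of 15 on the array were above background, all 9 of them in the control, and by a 1.5-fold rule 7 were lower and 0 higher, where over all 950 genes above background 44.4% were lower and 8.32% higher. Their signals summed to 339 in the control against 64.4 and 59.5. Markers of cumulus and granulosa cells (0 of 8 above background, summed signals of 6.35, 5.77 and 3.77) and of sperm and testis (0 of 5, summed signals of 0.667, 3.57 and 8.85) stayed under the limits on all 3 arrays. Most genes above background on all 3 arrays were not dimmer: over these 124 genes the median log2 difference, NSN minus control, was 0.56. Over the 136 probes above it on all 3 the median ratio to the control was 1.43 on NSN-2cell-a and 1.39 on NSN-2cell-b. The NSN limits were above that of the control, so the dimmest control genes entered these sets only where the NSN signals were higher. The 808 genes above background in the control but not on both NSN arrays had a median of -0.53. The part of these array-wide differences in those of the histone genes was not tested.

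The histone genes above background were mostly replication-dependent H2A genes. Of the 68 histone genes, 11 (16.2%) were above background, against 950 of the 16593 genes of the array (5.73%). All 11 were above it on the control array, and 4 on each NSN array. The replication-dependent H2A genes made up 7 of the 11 (7 of 14 on the array). The others were 1 of 5 replication-dependent H1 genes, 1 of 9 replication-dependent H3 genes and 2 of 16 variants, and 0 of 13 H2B and 0 of 11 H4 genes of the clusters were above background. Without the replication-dependent H2A genes, 4 of 54 histone genes (7.41%) were above background, near the share of the whole array. Signals of different probes depend on the probe as well as on the transcript, so these counts do not rank histone types by abundance. A probe of a cluster H2A gene may also read its paralogs, so the 7 H2A genes may stand for fewer transcripts.

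**Figure D1:**
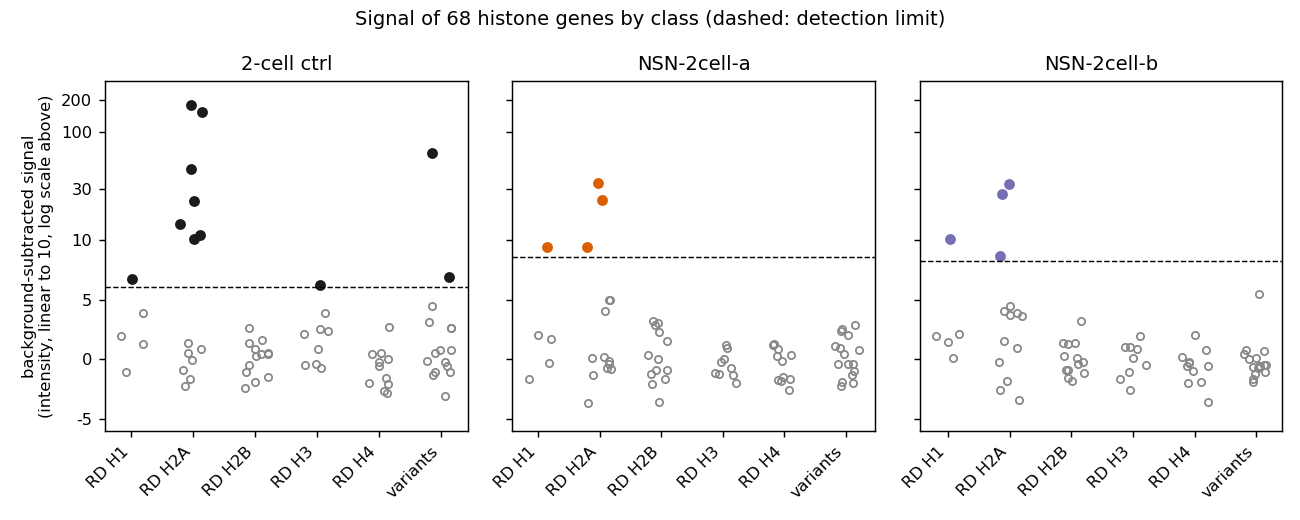
Signal of each of the 68 histone genes on the 3 arrays, 1 panel per array, by class (RD, replication-dependent; y axis, background-subtracted intensity, linear to 10 and logarithmic above; filled points reach the limit of the array, dashed). Each point is 1 gene, and the RD H2A genes are the class with most points above the limits, while all RD H2B and RD H4 genes lie below them.

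Of the 11 histone genes above background, 6 had an NSN signal at least 1.5-fold under that of the control, 0 were higher and 5 were neither. Over all 950 genes above background 44.4% were lower by this rule and 8.32% higher, and with 11 genes the histone share is not set apart from that of the array. The median log2 difference, NSN minus control, was -0.74 over the 11 histone genes and -0.40 over the 950, with each signal under its limit set to the limit. The 6 were 5 replication-dependent H2A genes (H2ac24, H2ac20, H2ac10, H2ac22 and H2ac7) and the H3.3 gene H3f3b. By kind, 5 of 9 replication-dependent genes above background were lower (median -0.74) and 1 of 2 variants (median -1.33), and these numbers are too small to set the kinds apart. The counts rest on how bright a gene was in the control. All 115 genes of the array with a control signal of at least 45.4, the signal of H2ac10, were lower in 2-cell NSN embryos, so the 4 brightest histone genes share their direction with every gene of their brightness. At or above 14.1, the signal of H2ac7, 376 of 405 genes (92.8%) were lower and 22 higher.

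H2ac24 (older symbol Hist1h2ap), a replication-dependent H2A gene on chromosome 13, was the brightest histone gene of the control. Its signal was 178 in the control, 33.5 on NSN-2cell-a and 33.3 on NSN-2cell-b. It had rank 24 among the 16593 genes by control signal, and both NSN arrays were far below the control and nearly equal. The log2 difference was -2.42 (SE 0.11), a 5.34-fold lower signal, with an adjusted p of 0.000261 by limma. H2ac20 (Hist2h2ac), 1 of the 3 H2A genes on the array from the smaller cluster on chromosome 3, read 156 in the control, 23.5 on NSN-2cell-a and 26.9 on NSN-2cell-b. This was 6.22-fold lower (log2 difference -2.64, SE 0.16, limma adjusted p = 0.000377), the largest measured fold among the histone genes above background on all 3 arrays. The other H2A genes on the array from that cluster, H2ac18 (Hist2h2aa1) and H2ac21 (Hist2h2ab), were below background on all 3 arrays. H2ac10 (Hist1h2af), also replication-dependent and on chromosome 13, read 45.4 in the control, 9.39 on NSN-2cell-a and 8.68 on NSN-2cell-b, the last values close to the limits. Its signal was 5.03-fold lower (log2 difference -2.33, SE 0.17, limma adjusted p = 0.000620).

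The limma fit ran over the 136 probes above background on all 3 arrays and called 22.8% of them lower and 43.4% higher at an adjusted p under 0.05. Of the 4 histone probes in it, 3 were lower and 0 higher. The fit has 1 residual degree of freedom, given by the NSN arrays alone, and it assumes that the lone control would vary as they do. Over 1 control and 2 NSN arrays an exact permutation test cannot go below a one-sided p of 0.333. The log2 difference between NSN-2cell-a and NSN-2cell-b was 0.01 for H2ac24, -0.20 for H2ac20 and 0.11 for H2ac10, each far smaller than the difference from the control. Ordered from the most lowered, these genes stood at places 14, 12 and 15 of the 124 genes above background on all 3 arrays, of which 30 were lower and 60 higher. Within those 124 genes, all 26 with a control signal of at least 45.4 were lower.

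**Figure D2:**
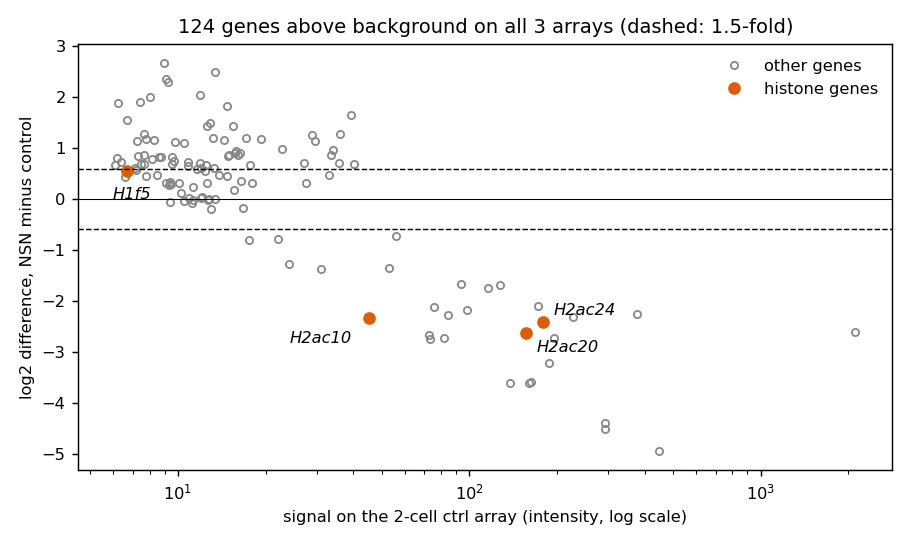
Log2 difference between the mean of the 2 NSN arrays and the control (y axis) against the control signal (x axis, intensity, log scale) for the 124 genes above background on all 3 arrays, with the 4 histone genes filled and dashed lines at 1.5-fold. H2ac24, H2ac20 and H2ac10 lie among the bright genes, all of which were lower, and H1f5 among the dim genes, most of which were not.

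Of the other H2A genes of the chromosome 13 cluster, H2ac22 (Hist1h2an) read 23.1 in the control and 4.08 and 3.74 on the NSN arrays, both below the limits. It was at least 2.75-fold lower, where the bound sets the control signal against the mean of the NSN limits. H2ac7 (Hist1h2ad) read 14.1 in the control, -0.755 on NSN-2cell-a and 0.950 on NSN-2cell-b, at least 1.68-fold lower. H2ac12 (Hist1h2ah) read 11.2, 4.96 and 4.04, and its bound of at least 1.33-fold did not reach the 1.5-fold rule. H2ac15 (Hist1h2ak) read 10.2, 4.96 and 3.87, with a bound of at least 1.21-fold. These 4 genes were above background on the control array only, with control signals over both NSN limits. That alone fixes that both NSN arrays lay below the control. Limits at a detection p of 0.05 (2.94, 3.30 and 3.18) placed H2ac22, H2ac12 and H2ac15 above background on all 3 arrays, where the signal was 5.93-fold lower for H2ac22, 2.51-fold for H2ac12 and 2.33-fold for H2ac15. By limma at these limits H2ac22 passed the test (adjusted p = 0.00133), and H2ac12 (adjusted p = 0.0717) and H2ac15 (adjusted p = 0.0957) did not. H2A genes of the clusters have near-identical coding sequences, so a probe may also read its paralogs, and the assignment of signals within the family is uncertain.

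Replication-dependent H2A and H2B genes often stand head to head with a shared promoter region between them. Among the members 5 such pairs had starts within 1000 bases of each other, and in 3 of them the H2A gene was above background. H2ac12 and H2bc12 start 178 bases apart, H2ac15 and H2bc15 164 bases and H2ac7 and H2bc7 174 bases. The H2B partner was below background on every array in all 5 pairs, with control signals of 1.60 for H2bc12, -1.48 for H2bc15 and 0.46 for H2bc7. The 13 H2B genes of the clusters ranged from -2.41 to 2.62 in the control and from -3.53 to 3.23 on the NSN arrays. The 11 H4 genes ranged from -2.83 to 2.74 and from -3.52 to 2.04. In both classes every gene was below background on all 3 arrays, so a difference between the groups could not be read for any of them.

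H1f5 (Hist1h1b), a linker histone gene of the cluster on chromosome 13, was the histone gene above background on all 3 arrays that was not lower. It read 6.70 in the control, 9.44 on NSN-2cell-a and 10.3 on NSN-2cell-b, with the control value just over its limit. That control value lay under both NSN limits (8.57 and 8.28). H1f5 could thus pass on all 3 arrays only with both NSN signals above the control. The log2 difference was 0.55 (SE 0.23), with an adjusted p of 0.0938 by limma, and it did not pass the test or the 1.5-fold rule. H1f5 stood at place 62 of the 124 genes above background on all 3 arrays, whose median log2 difference was 0.56. With the NSN arrays divided by their median ratio to the control, its log2 difference was 0.06. H3c6 (Hist1h3e), the replication-dependent H3 gene above background, read 6.26 in the control and 0.932 and 1.05 on the NSN arrays. With the control so close to the limit no fold can be given for it.

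Among the variants, H3f3b stood out in the control at 64.6, and read 2.06 on NSN-2cell-a and -0.433 on NSN-2cell-b. The NSN embryos were thus at least 7.68-fold lower in this transcript, with both arrays under their limits. The log2 value behind this bound was -2.94, and it was -0.80 with normexp and quantile normalization and -2.27 with an offset of 16 added to every signal. H3f3a, which encodes the same H3.3 protein, was below background with 2.64, 0.481 and -1.64. H2al2a, a short H2A variant of spermatids, read 6.91 in the control and 2.88 and 5.49 on the NSN arrays, and no fold can be given. The oocyte linker histone gene H1f8 (H1foo) read 4.45 in the control, just under the limit, and -1.27 and -1.04 on the NSN arrays. H2ax, whose protein is phosphorylated at DNA breaks, read 3.15, -1.88 and -0.548, and H2az1, which encodes H2A.Z, read 0.822, -0.351 and -1.20. Both were below background. The 57 histone genes below background ranged from -3.04 to 4.45 in the control and from -3.64 to 4.45 on the NSN arrays. At the limits for a detection p of 0.05, 18 of the 68 histone genes reached the limit on at least 1 array, 14 of them replication-dependent and 4 variants. This share was not counted over all genes, so the number is not read further. In the control or on both NSN arrays, 15 histone genes reached these limits, and 2485 of the 16593 genes of the array. The 7 histone genes with several probes were all below background on every probe.

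**Figure D3:**
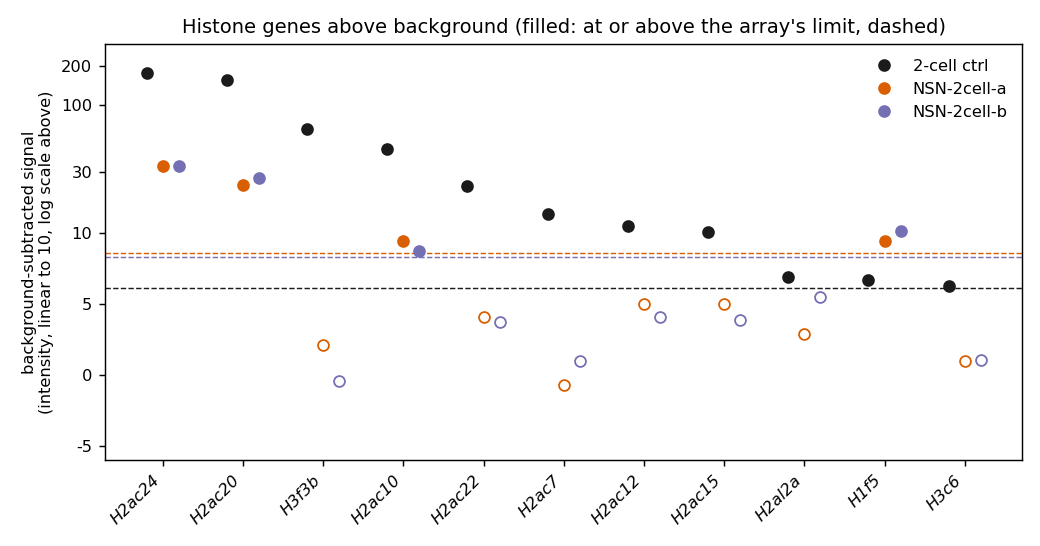
Signal of the 11 histone genes above background on each array (y axis, background-subtracted intensity, linear to 10 and logarithmic above; filled points reach the limit of their array, open points do not; dashed lines, the 3 limits). The control lies above both NSN arrays in 10 of the 11 genes, all but H1f5. All 11 passed the filter on the control array, as did 932 of the 950 genes, and 4 of the 11 passed on all 3. The filter thus favours this direction, and the same count over all genes was not made. The control signal of H1f5 lies under both NSN limits.

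Genes that make, carry or deposit histones were read in the same way from a list of 44, of which 35 were on the array. Of these, 4 were above background, 3 were lower in 2-cell NSN embryos, 0 were higher and 1 was neither, where 5.73% of all genes were above background and 44.4% of those were lower and 8.32% higher. All 4 were above background on the control array only, which fixes that the NSN arrays lie under their limits. Cenpa, the centromeric H3 variant, read 96.5 in the control, 6.07 on NSN-2cell-a and 3.57 on NSN-2cell-b, at least 11.5-fold lower. Hjurp, the chaperone that brings CENP-A to centromeres, read 32.1, -0.622 and -0.402, at least 3.81-fold lower. Nap1l4, a chaperone of H2A and H2B, read 14.7, 0.359 and 1.43, at least 1.75-fold lower. Npm1, a nucleolar histone chaperone, read 8.11, -1.86 and -0.840, and no fold can be given. Cpsf2, a subunit of the complex that cleaves histone pre-mRNAs, reached the limit on NSN-2cell-b alone, with 3.85, 4.59 and 8.59, and was not counted.

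The histone calls depended on how the arrays were scaled. Under a normexp background model with quantile normalization 79 of the 950 genes were lower and 652 higher, against 422 and 79 as deposited, and 1 histone gene (H3f3b) was lower and 6 higher. In that scaling the log2 differences were -0.09 for H2ac24 (limma adjusted p = 0.0610), -0.37 for H2ac20 (0.157) and -0.30 for H2ac10 (0.122). The same scaling without a floor at the limits gave 674 lower and 169 higher genes, and 4 histone genes lower (H3f3b, H2ac22, H2ac7 and H3c6) and 1 higher (H1f5). With an offset of 16 added to every signal the split over all genes was 554 lower and 29 higher, and with the NSN arrays divided by their median ratio to the control it was 573 and 33. The median log2 difference of all 950 genes moved with the scaling, from -0.40 as deposited to 0.98 with normexp and quantile normalization, -1.81 without the floor, -0.69 with the offset and -0.90 after division. Relative to that median, H3f3b was at -2.54 as deposited and at -1.78 with the floor and -1.88 without in the quantile scalings. Both its NSN signals were under their limits, so these values rest on the limits or, without the floor, on signals near 0. They do not show that its direction holds better than that of the H2A genes. H2ac24 was at -2.01 as deposited and at -1.07 with quantile scaling, but at 1.72 without the floor, and H2ac20 (-2.23, -1.35 and 1.44) and H2ac10 (-1.92, -1.28 and 1.51) turned in the same way. The log2 differences of these 3 genes were the same in both quantile scalings, and only the median of all genes moved. Of the 950 genes, 808 were above background in the control but not on both NSN arrays. Without the floor that median thus rests largely on NSN signals under the limits. The lower signals of these 3 H2A genes therefore hold on the deposited scale, whose normalization between arrays is not fully known, and their direction relative to other genes is not settled.

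**Figure D4:**
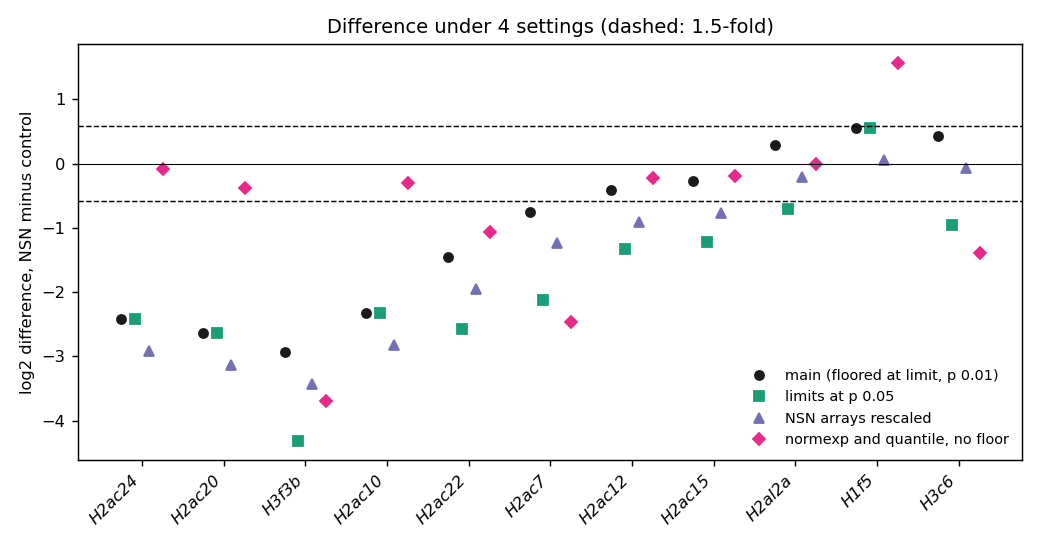
Log2 difference between 2-cell NSN and control embryos (y axis) for the 11 histone genes above background (x axis) under 4 processing settings, each with its own symbol, with a solid line at 0 and dashed lines at 1.5-fold. H3f3b lies at or below -2.94 under these 4, with its NSN signals set to the limits or, without a floor, near 0. It does not under every setting that is not drawn (-0.80 with normexp and quantile normalization with the floor and -2.27 with the offset). H2ac24, H2ac20 and H2ac10 come close to 0 with normexp and quantile normalization without a floor.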

How the data were processed

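Transcripts were measured on 3 BeadChip arrays, 1 of 2-cell ctrl and 2 of 2-cell NSN embryos. The deposited values are intensities, background-subtracted by the authors in BeadStudio 3 (the submitters' processing notes). The methods state rank-invariant normalization, a detection p of 0.01 and a fold of 1.5, but the exact normalization between arrays is unknown. Another 3 columns of values match no sample by name and were not used.

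Detection limits came from the methods' analysis table, of which 1188 rows were held and 896 matched exactly 1 probe within 0.002%. No detection p was held for NSN-2cell-b, and its limit is that of NSN-2cell-a scaled by the spread below the median. Of 25697 probes, 23978 had 1 gene symbol, 0 several and 1719 none. All 68 histone genes matched the RefSeq table (GRCm38.p6), and the array files hold no coordinates. 7 histone genes had several probes. Signals were raised to the limit where they lay under it, and log2 was taken. limma 3.58.1 in R 4.3.3 used an intensity trend and Benjamini-Hochberg adjustment over 136 probes. The rule and the fit were run on simulated data. For the fit the simulated control was given the same spread as the NSN arrays, so this did not test that assumption for the lone control. Other steps used Python 3.11.15, pandas 2.3.3, numpy 2.4.6 and matplotlib 3.10.9. The number of arrays limits the precision.

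The members and lists were chosen with earlier results of these data known. The genes named are all histone genes above background, H1f8, H2ax, H2az1, H3f3a and H3f3b whatever their values, and the chaperone and histone mRNA genes above background on any array. The alternatives were other limits, an offset, 2 scalings, a fold of 2, the mean of all probes, no filter, both NSN arrays past the fold, limma without a trend and each NSN array left out. Quantile normalization without a floor was chosen after seeing the data.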

Additional observations from a re-analysis of the deposited data

How the results depend on the processing

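Limits at a detection p of 0.05 gave 10 of 15 histone genes lower, 8 of them replication-dependent and 2 variants. Limits mirrored from values below 0 gave 9 of 15, with 8 replication-dependent. Over all genes these limits called 917 of 2485 lower and 212 higher, and 768 of 2209 lower and 182 higher. Normexp with quantile normalization gave 1 lower (0 replication-dependent) and 6 higher, with a median of 0.78 and values of 0.38 for H2ac22, 0.78 for H2ac7, 0.97 for H2ac12 and 1.04 for H2ac15, and these bounds rise by construction because the carried limits rise. Without the floor 3 replication-dependent genes were lower and 1 histone gene higher. With no filter the median was 0.46, since most genes then sit at their limits. H2al2a was at -0.70 with the limits at 0.05, and H3c6 at -0.95 there, at -0.64 with mirrored limits and at -1.39 without the floor. limma called 1 histone probe higher without a trend (H1f5, adjusted p = 0.0441), and with quantile normalization 0 lower and 1 higher (H1f5, adjusted p = 0.0163). A fold of 2 ended the call of H2ac7. Leaving out either NSN array gave 6 lower both times and 0 to 1 higher, the 1 being H1f5 (0.61) without NSN-2cell-a. These fits of 1 array against 1 leave no residual degree of freedom, so limma was not run on them. Among the limma settings the adjusted p ranged from 9.67e-08 to 0.0610 for H2ac24, 2.81e-07 to 0.157 for H2ac20 and 6.97e-05 to 0.122 for H2ac10. No paired analysis was possible because there is 1 control array and the labels carry no shared replicate number. Signals under the limits on all 3 arrays, as for 57 of the 68 histone genes, cannot show a difference.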
